A study of Mus musculus with 14 samples.

Results

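The NF-kB pathway and its early target genes were followed as 34 named genes in mouse bone marrow-derived macrophages exposed to medium conditioned by liver cancer cells. The genes were chosen by name. No measured value entered the rule, but the list was drawn up with earlier results of these data known. All 34 were found among the 25239 gene symbols of the count table, and all 34 passed the filter on low counts that left 13311 genes for testing. By role they fell into 5 IkB-type inhibitors, 5 NF-kB subunits, 6 signalling adaptors and kinases, 3 members of the A20 and ABIN group of brakes, 7 early brakes and growth arrest genes, and 8 effectors and other induced genes.

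The 14 RNA sequencing libraries formed 4 groups. KO macrophages came from Ezh2fl/fl;LysM-Cre+/- mice, and WT macrophages came from littermate controls, whose own floxed and Cre alleles are not given in the sources used here. CM libraries were from macrophages kept for 24 h in conditioned medium of the mouse liver cancer line Hepa1-6, and control libraries were from macrophages kept for 24 h in complete DMEM. There were 3 KO CM, 3 KO control, 4 WT CM and 4 WT control libraries. All cells had been grown from marrow in DMEM with fetal and horse serum and L929 cell medium, a source of the growth factor M-CSF. LysM-Cre acts in myeloid cells and sits in the Lyz2 locus, so every KO library carries Cre, and the presence of Cre and the loss of Ezh2 cannot be told apart here. The age of the mice, and whether replicates came from separate mice or cultures, are not given in the sources used here, so a p-value here reflects only how far these libraries spread, which may be technical.

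NF-kB is a family of dimers of Rel-domain proteins that wait in the cytoplasm bound to IkB inhibitors. Toll-like, interleukin 1 and TNF receptors signal through adaptor proteins to the IkB kinases, which mark the IkB proteins for destruction, and the freed dimers enter the nucleus and bind kB sites. Among the first genes that NF-kB switches on in macrophages are its own brakes, such as Nfkbia and Tnfaip3, next to genes for cell survival, adhesion and inflammation, so one gene list holds activators, inhibitors and products of the pathway.

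The kB site itself can be read in the promoters of several of these genes. In the 250 bases upstream of RefSeq gene starts (build GRCm38.p6), 27 of the 34 genes had an entry, and 10 of those 27 (37.0%) held a match to the NF-kB consensus of 10 letters on either strand, against 1204 of all 27025 symbols in the table (4.46%). The 10 were Nfkbia, Nfkbie, Nfkb2, Rel, Tnfaip3, Tnip1, Tnip3, Sod2, Ier3 and Nlrp3. The excerpts printed here are from 6 of them, chosen because the results turn on these genes: 3 whose mRNA was higher in CM (Nfkbia, Sod2, Ier3), 2 whose mRNA was lower (Nfkbie, Tnip3), and Nlrp3, which was lower in KO libraries. Each is written 5′ to 3′ on the strand of the gene, and capitals mark the bases of the match.
Nfkbia, chr12:55492648-55492711, minus strand, match 29 to 20 bases before the start: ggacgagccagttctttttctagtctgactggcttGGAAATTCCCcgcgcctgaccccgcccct
Sod2, chr17:13007721-13007800, plus strand, match 83 to 74 bases before the start: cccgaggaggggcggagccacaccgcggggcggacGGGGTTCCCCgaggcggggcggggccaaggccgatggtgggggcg
Ier3, chr17:35821586-35821665, plus strand, match 92 to 83 bases before the start: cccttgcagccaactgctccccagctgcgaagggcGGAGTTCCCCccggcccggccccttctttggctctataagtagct
Nfkbie, chr17:45555559-45555638, plus strand, match 106 to 97 bases before the start: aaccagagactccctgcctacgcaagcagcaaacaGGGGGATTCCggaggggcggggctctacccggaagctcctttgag
Tnip3, chr6:65590309-65590388, plus strand, match 54 to 45 bases before the start: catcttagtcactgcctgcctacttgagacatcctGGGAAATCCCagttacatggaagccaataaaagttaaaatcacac
Nlrp3, chr11:59541348-59541427, plus strand, match 186 to 177 bases before the start: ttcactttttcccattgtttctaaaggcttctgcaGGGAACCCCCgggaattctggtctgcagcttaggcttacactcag
The match was present at about the same share among genes that moved either way. In WT macrophages, 3 of the 7 genes with a promoter entry that were higher in CM held a match, as did 5 of the 12 that were lower and 2 of the 8 that were not called. A match describes letters in this window and not binding.

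The libraries held 40.25 to 61.54 M (mega) summed exon counts in KO CM, 41.79 to 54.36 M in KO control, 41.31 to 85.77 M in WT CM and 45.17 to 82.09 M in WT control. Exons 18 and 19 of Ezh2 were read to describe the genotypes. They were known from earlier work on these libraries to be depleted in KO, so they give no independent check. Together they stood, per base, at 6.5% to 16.8% of exons 2 to 17 in KO CM and at 1.8% to 28.3% in KO control, against 82.4% to 126.4% in WT CM and 88.3% to 148.0% in WT control. Summed over all exons, Ezh2 had a KO over WT log2 fold change of -0.40 ± 0.10 (SE, edgeR adjusted p = 0.0334) in CM. In control medium it stood at -0.31 ± 0.10 (adjusted p = 0.0761). Against WT libraries 1 and 2 alone it stood at -0.34 in CM (adjusted p = 0.0536) and -0.15 in control medium (adjusted p = 0.439). Against WT libraries 3 and 4 alone it stood at -0.44 in both media (adjusted p at most 0.000652). The cells carried macrophage markers. The 6 macrophage genes other than Lyz2 summed to 9719 to 10220 CPM (counts per mega-count of the library, scaled by TMM factors) in KO CM, 11070 to 11480 in KO control, 10160 to 10690 in WT CM and 10870 to 11740 in WT control, but single genes of this sum differed between the media in opposite directions. Adgre1 averaged 1900 CPM in KO CM and 3687 in KO control, and 2098 in WT CM and 3382 in WT control. Itgam averaged 3096 CPM in KO CM and 1142 in KO control, and 2993 in WT CM and 1213 in WT control. The part of such changes in the CM results was not tested. The marker lists of neutrophils, T cells, B cells, dendritic cells, fibroblasts and hepatoma cells each summed to at most 3.034 CPM in any library. WT libraries 3 and 4 of both media stood apart from the rest: they held 80.42 to 85.77 M counts, against 40.25 to 61.54 M in the other 10 libraries. Of the 34 genes, 16 (47.1%) had WT libraries 3 and 4 on the same side of WT libraries 1 and 2 in both media, next to 43.8% of all tested genes. The labels name no batch, so KO against WT values are also given against each pair of WT libraries. In these bulk libraries, fewer cells of a type and less RNA per cell cannot be told apart.

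CM moved the NF-kB genes in both directions, and brakes stood on both sides. In WT macrophages, CM was higher than control medium for 8 genes (Nfkbia, Bcl3, Map3k8, Irak3, Ier3, Icam1, Sod2 and Plek) and lower for 16, among them the subunit gene Nfkb1, the inhibitor Nfkbie, A20 (Tnfaip3), the ABIN genes Tnip1 and Tnip3, the phosphatase Dusp1 and the surface protein Cd83. That is 24 of 34 genes at an edgeR quasi-likelihood adjusted p below 0.05, against 37.3% of all tested genes called in either direction, 19.3% called higher and 18% called lower. In KO macrophages, 21 of 34 were called, the same 8 higher and 13 lower, against 38.1% of all tested genes, 20% higher and 18.2% lower. The median log2 fold change of the 34 genes was -0.17 in WT, beside -0.006 for all tested genes, and -0.16 in KO, beside -0.012 for all tested genes. The 2 CM comparisons contrast different libraries. Both came from a single model of all groups, so they share its estimate of spread and are not independent tests. Of the 34 genes, 8 were called higher in both, 11 lower in both, 5 lower in WT alone, 2 lower in KO alone (Nfkb2 and Relb), and 8 in neither. The shares of all tested genes in these classes were not computed, so these counts have no background. A call in 1 genotype alone does not mark a difference in response, and such calls moved with the libraries fitted. In fits of the compared groups alone, 20 genes were called in WT (33% of all tested genes) and 25 in KO (46.9%). The KO calls gained there were Tnip1, Tnfaip2 and Zfp36, all lower, and Cflar, higher. None of these was called in the WT fit. Within WT libraries 1 and 2 alone, 22 genes were called for CM (7 higher, 15 lower, against 32.6% of all tested genes called), without calls for Rel, Dusp2, Map3k8 and Ripk2 among the 24, and within WT libraries 3 and 4 alone 23 were called (8 higher, 15 lower, against 36.3% of all tested genes), without Nfkbiz and Tnfaip2. With library totals in place of TMM scaling, which moved the median of all genes in KO to -0.119, 27 genes were called in KO, 6 of them higher and 21 lower, against 41.8% of all tested genes. With each gene's most-counted exon in place of the sum of its exons, the WT calls of Nfkbiz, Tnfaip2, Dusp2, Gadd45b, Map3k8 and Ripk2 were lost (adjusted p between 0.0534 and 0.367), as were the KO calls of Nfkbia, Nfkb2, Birc3, Dusp2 and Map3k8 (adjusted p between 0.0955 and 0.616).

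**Figure D1:**
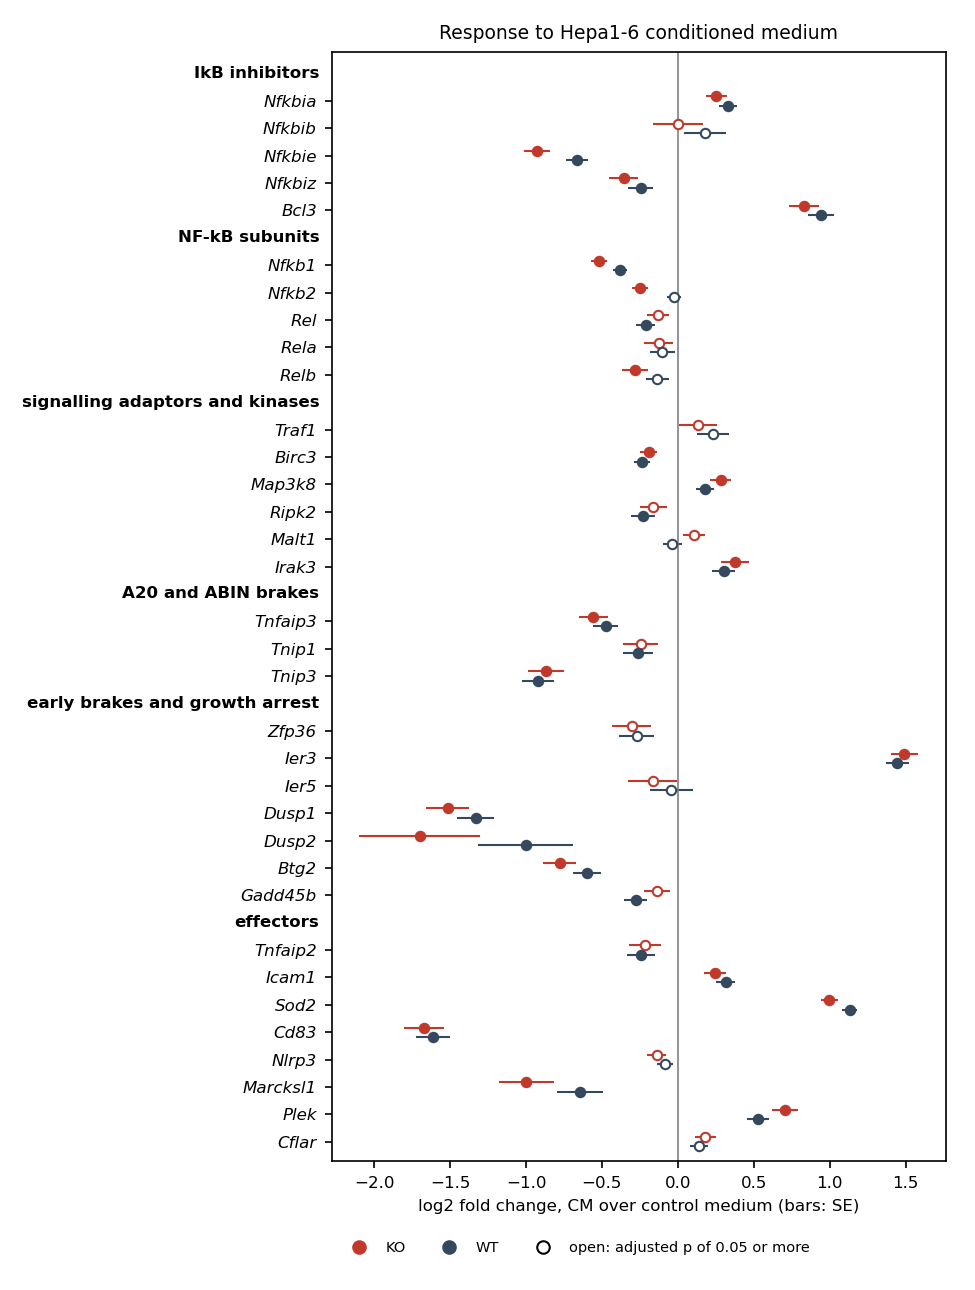
Log2 fold change of CM over control medium (x axis) for each of the 34 genes, grouped by role, in KO and in WT macrophages, with standard errors as bars and open symbols for adjusted p of 0.05 or more. Ier3, Sod2 and Bcl3 lie furthest to the right and Cd83, Dusp1 and Dusp2 furthest to the left in both genotypes.

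The IkB-type inhibitors divided. Nfkbia encodes IkB-alpha, the inhibitor that newly activated NF-kB re-makes first. Nfkbia had 85.2, 76.3 and 79.9 CPM in KO CM, against 68.2, 70.5 and 63.7 CPM in KO control. In WT it had 73.3, 73.1, 75.9 and 75.2 CPM in CM, against 65.5, 60.8, 55.5 and 55.1 CPM in control. Every CM library was above every control library of its genotype, by a log2 fold change of 0.25 ± 0.07 (SE, edgeR adjusted p = 0.00954) in KO and 0.33 ± 0.06 (adjusted p = 0.000461) in WT. The KO call of Nfkbia ended without KO CM library 1 (adjusted p = 0.0503) and with library totals alone (adjusted p = 0.107). Bcl3, a nuclear IkB relative that works with the Nfkb1 and Nfkb2 products, rose most of this group. Bcl3 had 51.6, 51.7 and 54.6 CPM in KO CM, against 29.9, 32.4 and 26.4 CPM in KO control. The WT values of Bcl3 were 46.2, 51.2, 56.4 and 57.9 CPM in WT CM, against 26.2, 24.6, 29.4 and 29.8 CPM in WT control. The groups did not overlap, and the log2 fold change was 0.83 ± 0.10 in KO (edgeR adjusted p = 6.61e-06) and 0.94 ± 0.09 in WT (adjusted p = 2.99e-07).

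Nfkbie, which encodes IkB-epsilon, moved the other way. Nfkbie had 10.98, 10.4 and 9.70 CPM in KO CM, against 20.5, 19.3 and 19.3 CPM in KO control. In WT it had 12.3, 12.7, 13.4 and 14.3 CPM in CM, against 23.2, 19.4, 20.6 and 20.5 CPM in control. All 7 CM libraries lay below all 7 control libraries, with log2 fold changes of -0.93 ± 0.09 in KO (edgeR adjusted p = 4.79e-07) and -0.67 ± 0.07 in WT (adjusted p = 2.7e-06). Nfkbiz, a nuclear IkB relative that helps switch on secondary response genes in macrophages, also fell, by 0.36 ± 0.09 on the log2 scale in KO (edgeR adjusted p = 0.00722) and by 0.25 ± 0.08 in WT (adjusted p = 0.0269), and the WT call was lost without WT CM library 1 or 2 or WT control library 1 (adjusted p between 0.0688 and 0.0853). Nfkbib, which encodes IkB-beta, was not called in either genotype (0.00 in KO and 0.18 in WT). With the replicate number as a block Nfkbib was called in WT at an adjusted p of 0.0477.

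Of the 5 subunits, Nfkb1 changed most. Nfkb1 encodes the precursor of the subunit that pairs with Rela in the best known dimer. It had 144, 139.4 and 142 CPM in KO CM, against 197.3, 207.8 and 203.5 CPM in KO control, and 149.9, 139.8, 146.9 and 141.2 CPM in WT CM, against 192.8, 197.8, 181.3 and 180.1 CPM in WT control. All CM libraries lay below all control libraries, by 0.52 ± 0.05 on the log2 scale in KO (edgeR adjusted p = 1.38e-06) and 0.38 ± 0.05 in WT (adjusted p = 7.28e-06). Rela, the partner with a transactivation domain, was not called, with log2 fold changes of -0.13 in KO (edgeR adjusted p = 0.324) and -0.10 in WT (adjusted p = 0.355). With the replicate block Rela was called lower in WT (adjusted p = 0.0278) and in KO (adjusted p = 0.0229). Rel, the c-Rel subunit, fell by 0.21 ± 0.06 in WT (edgeR adjusted p = 0.0141) and stood at -0.13 in KO (adjusted p = 0.174), and the WT call was lost without WT control library 4 (adjusted p = 0.0516).

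Relb and Nfkb2 encode the pair of the noncanonical arm of the pathway. Relb fell by 0.28 ± 0.09 in KO (edgeR adjusted p = 0.0166), a call that was lost without KO CM library 3 (adjusted p = 0.0685) or KO control library 1 (adjusted p = 0.0543), and stood at -0.14 in WT (adjusted p = 0.173), where the replicate block gave an adjusted p of 0.0251. Nfkb2 fell by 0.25 ± 0.05 in KO (edgeR adjusted p = 0.00129) and stood at -0.02 in WT (adjusted p = 0.732). Their interaction terms, which test whether the CM response differed between genotypes, were not called (edgeR adjusted p = 0.812 for Relb and 0.375 for Nfkb2).

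Per kilobase of distinct exon, Nfkb1, Rela and Nfkb2 stood above Relb, and Relb above Rel, in every group. In KO CM, Nfkb1 stood at 34.4 ± 0.553 CPM per kb (SD, n = 3), Rela at 30.7 ± 1.28, Nfkb2 at 25.7 ± 1.16, Relb at 13.1 ± 0.569 and Rel at 5.88 ± 0.294. In WT control, Nfkb1 stood at 45.6 ± 2.12 CPM per kb (SD, n = 4), Rela at 39.4 ± 4.11, Nfkb2 at 30.6 ± 0.883, Relb at 14.2 ± 1.57 and Rel at 7.36 ± 0.649. Nfkb1 and Rela did not separate beyond their spread in WT CM, at 35.1 ± 1.15 and 36.6 ± 4.19 CPM per kb.

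Among the adaptors and kinases, Map3k8 and Irak3 rose and Birc3 fell. Irak3, a kinase relative that damps Toll-like receptor signals, had 45.0, 50.8 and 52.5 CPM in KO CM, against 40.2, 38.6 and 35.3 CPM in KO control. The WT values of Irak3 were 45.5, 49.2, 53.8 and 55.8 CPM in WT CM, against 40.3, 37.8, 44.6 and 43.2 CPM in WT control. Its groups did not overlap within a genotype, with log2 fold changes of 0.38 ± 0.09 in KO (edgeR adjusted p = 0.00345) and 0.30 ± 0.08 in WT (adjusted p = 0.00591). Map3k8, the kinase that passes Toll-like receptor signals to ERK, rose by 0.28 ± 0.07 in KO (edgeR adjusted p = 0.00386) and by 0.18 ± 0.06 in WT (adjusted p = 0.0253). In WT the Map3k8 groups overlapped, and leaving out WT CM library 1, 3 or 4, or WT control library 1, 3 or 4, ended the call (adjusted p between 0.0548 and 0.0803). Birc3, a ubiquitin ligase bound to TNF receptor complexes, fell by 0.19 ± 0.06 in KO (edgeR adjusted p = 0.0155) and by 0.24 ± 0.05 in WT (adjusted p = 0.00144), and the KO call was lost without KO CM library 1 (adjusted p = 0.0602) or KO control library 1 (adjusted p = 0.0594).

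Ripk2, the kinase behind NOD receptors, fell by 0.23 ± 0.08 in WT (edgeR adjusted p = 0.028) and stood at -0.16 in KO (adjusted p = 0.176), and the WT call ended without WT CM library 4 or without WT control library 1, 3 or 4 (adjusted p between 0.0582 and 0.0906). Traf1, an adaptor at TNF receptors, was not called, at 0.13 in KO and 0.23 in WT (edgeR adjusted p = 0.431 and 0.101). In WT, 1 library set the Traf1 result: without WT control library 1 the log2 fold change was 0.35 (adjusted p = 0.00614), and the replicate block gave 0.24 (adjusted p = 0.0217). Malt1, the protease of the CARD and BCL10 complex, was the gene whose sign differed between genotypes, at 0.11 in KO (edgeR adjusted p = 0.29) and -0.04 in WT (adjusted p = 0.715), and neither value was called.

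In the A20 group, Tnfaip3 and Tnip3 were called lower in both genotypes. Tnip1 was called lower in WT alone, with a similar fold change in KO. Tnfaip3 (A20) is a ubiquitin-editing enzyme that shuts down signalling to NF-kB, and Tnip1 and Tnip3 encode ABIN proteins that work with it. Another ABIN gene, Tnip2, which was read with the upstream genes, was not called, at -0.23 in KO (edgeR adjusted p = 0.108) and -0.06 in WT (adjusted p = 0.632). Tnip3 had 33.1, 31.4 and 30.5 CPM in KO CM, against 62.3, 55.6 and 55.2 CPM in KO control. The WT values of Tnip3 were 33.3, 27.5, 40.2 and 35.4 CPM in WT CM, against 70.2, 54.5, 69.9 and 63.9 CPM in WT control. All CM libraries were below all control libraries, with log2 fold changes of -0.87 ± 0.12 in KO (edgeR adjusted p = 3.06e-05) and -0.92 ± 0.10 in WT (adjusted p = 3.06e-06). Tnfaip3 fell as well, with 15.6, 15.2 and 13.5 CPM in KO CM, against 21.5, 23.7 and 19.7 CPM in KO control. For Tnfaip3 in WT the values were 15.3, 15.7, 18.3 and 18.2 CPM in WT CM, against 24.1, 22.5, 24.8 and 22.8 CPM in WT control. Its groups did not overlap, and the edgeR adjusted p was 0.000233 in KO and 0.000224 in WT. Tnip1 fell by 0.26 ± 0.10 in WT (edgeR adjusted p = 0.0463), where the groups overlapped. It stood at -0.25 in KO (adjusted p = 0.107), where they did not. In fits of the compared groups alone, Tnip1 was called in KO (edgeR adjusted p = 0.00418) and not in WT (adjusted p = 0.104). The WT call of Tnip1 ended without WT CM library 1 or 2, without WT control library 3 or 4, and without any of 5 of the 6 KO libraries (adjusted p between 0.0566 and 0.16).

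The early brakes and growth arrest genes held the largest rise of the 34 genes, that of Ier3, and falls of Dusp1, Dusp2 and Btg2. Ier3, an early gene tied to cell survival under stress, had 28.1, 26.8 and 26.6 CPM in KO CM, against 9.89, 9.75 and 9.30 CPM in KO control. In WT it had 28.0, 27.1, 30.0 and 31.9 CPM in CM, against 9.75, 9.98, 11.6 and 11.6 CPM in control. The lowest CM library was above the highest control library by more than the range of either group, and the log2 fold change was 1.49 ± 0.09 in KO (edgeR adjusted p = 2.68e-09) and 1.44 ± 0.08 in WT (adjusted p = 5.1e-10).

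Dusp1, a phosphatase that switches off MAP kinases, moved the other way. Dusp1 had 3.42, 3.06 and 3.95 CPM in KO CM, against 10.0, 9.86 and 10.1 CPM in KO control, and 3.86, 4.12, 3.32 and 4.45 CPM in WT CM, against 8.47, 8.88, 10.9 and 11.3 CPM in WT control. All CM libraries were low and all control libraries high, with log2 fold changes of -1.52 ± 0.14 in KO (edgeR adjusted p = 4.91e-07) and -1.33 ± 0.12 in WT (adjusted p = 3e-07). Btg2, an antiproliferative early gene, had 22.7, 21.9 and 17.6 CPM in KO CM, against 37.0, 35.3 and 34.3 CPM in KO control. For Btg2 in WT the values were 22.1, 19.5, 25.0 and 22.9 CPM in WT CM, against 31.6, 35.3, 37.3 and 31.5 CPM in WT control. It did not overlap either, at -0.78 ± 0.11 in KO (edgeR adjusted p = 2.97e-05) and -0.60 ± 0.09 in WT (adjusted p = 8.16e-05).

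Dusp2, a nuclear phosphatase of the same family, was close to the detection limit. Its CM values were 0.0761 to 0.213 CPM in KO and 0.171 to 0.301 CPM in WT, against 0.385 to 0.637 CPM in KO control and 0.326 to 0.559 CPM in WT control. The groups did not overlap and were called (-1.70 ± 0.40, edgeR adjusted p = 0.00295 in KO, and -1.003 ± 0.31, adjusted p = 0.0201 in WT), but the WT call was lost without WT CM library 3 (adjusted p = 0.0659) or WT control library 4 (adjusted p = 0.0678). Gadd45b, a stress sensor in growth arrest, fell by 0.28 ± 0.08 in WT (edgeR adjusted p = 0.00779) and stood at -0.14 in KO (adjusted p = 0.225). Zfp36, which brings inflammatory mRNAs to decay, was not called in the main fit, at -0.30 in KO and -0.27 in WT (edgeR adjusted p = 0.081 and 0.0716). In WT it was called lower with the replicate block (adjusted p = 0.00088). It was also called lower within WT libraries 1 and 2 (adjusted p = 0.0478) and within WT libraries 3 and 4 (adjusted p = 0.00289). In KO it was called lower in the fit of the compared groups alone (adjusted p = 0.00214) and with the replicate block (adjusted p = 0.00125). Ier5, an early gene of the heat shock response, stood at -0.17 in KO (edgeR adjusted p = 0.458) and -0.04 in WT (adjusted p = 0.849).

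Of the effectors, Sod2, Plek and Icam1 rose. Sod2, the mitochondrial superoxide dismutase, had 108, 112.9 and 99.8 CPM in KO CM, against 54.0, 53.6 and 53.0 CPM in KO control. In WT it had 118.3, 120.2, 120.9 and 126 CPM in CM, against 57.2, 56.8, 55.4 and 52.2 CPM in control. The 7 CM libraries all stood far above the 7 control libraries, with log2 fold changes of 1.00 ± 0.06 in KO (edgeR adjusted p = 2.14e-09) and 1.13 ± 0.05 in WT (adjusted p = 8.97e-11). Plek, which encodes the leukocyte protein pleckstrin, had 355, 345.5 and 358.1 CPM in KO CM, against 210.7, 208 and 230.9 CPM in KO control, and 342.8, 339.5, 371.2 and 390.4 CPM in WT CM, against 239.2, 219.9, 259.4 and 283.7 CPM in WT control. The Plek groups did not overlap (edgeR adjusted p = 7.02e-06 in KO and 2.85e-05 in WT). Icam1, the adhesion molecule for leukocyte integrins, rose by 0.24 ± 0.07 in KO (edgeR adjusted p = 0.0172) and by 0.31 ± 0.06 in WT (adjusted p = 0.00109), and the KO call ended without KO CM library 1 or 2 or without KO control library 1 or 3 (adjusted p between 0.0546 and 0.0781) and with library totals alone (adjusted p = 0.162).

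Cd83, Marcksl1 and Tnfaip2 fell. Cd83, a surface glycoprotein of activated antigen-presenting cells, had 9.64, 11.2 and 15.8 CPM in KO CM, against 37.4, 37.8 and 42.4 CPM in KO control. For Cd83 in WT the values were 12.2, 12.5, 13.1 and 12.0 CPM in WT CM, against 39.2, 38.8, 35.8 and 38.9 CPM in WT control. All CM libraries were low, the KO ones with more spread than the WT ones, and the log2 fold change was -1.67 ± 0.13 in KO (edgeR adjusted p = 6.3e-08) and -1.61 ± 0.11 in WT (adjusted p = 1.47e-08). Tnfaip2, a gene induced by TNF, fell by 0.24 ± 0.09 in WT (edgeR adjusted p = 0.0478), with overlapping groups, a call that leaving out any KO library ended (adjusted p between 0.0587 and 0.0641). The call also ended without WT CM library 2, 3 or 4 or without WT control library 1 or 2 (adjusted p between 0.0505 and 0.15). Tnfaip2 stood at -0.22 in KO (adjusted p = 0.124), where the groups did not overlap. In fits of the compared groups alone, it was called in KO (edgeR adjusted p = 0.0024) and not in WT (adjusted p = 0.116). Cflar, the inhibitor of caspase-8 activation, was not called in the main fit, at 0.18 in KO and 0.14 in WT (edgeR adjusted p = 0.0521 and 0.0817). It was called higher in WT with the replicate block (adjusted p = 0.00798). In KO it was called higher in the fit of the compared groups alone (edgeR adjusted p = 0.0305) and in DESeq2 (adjusted p = 0.0383).

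**Figure D2:**
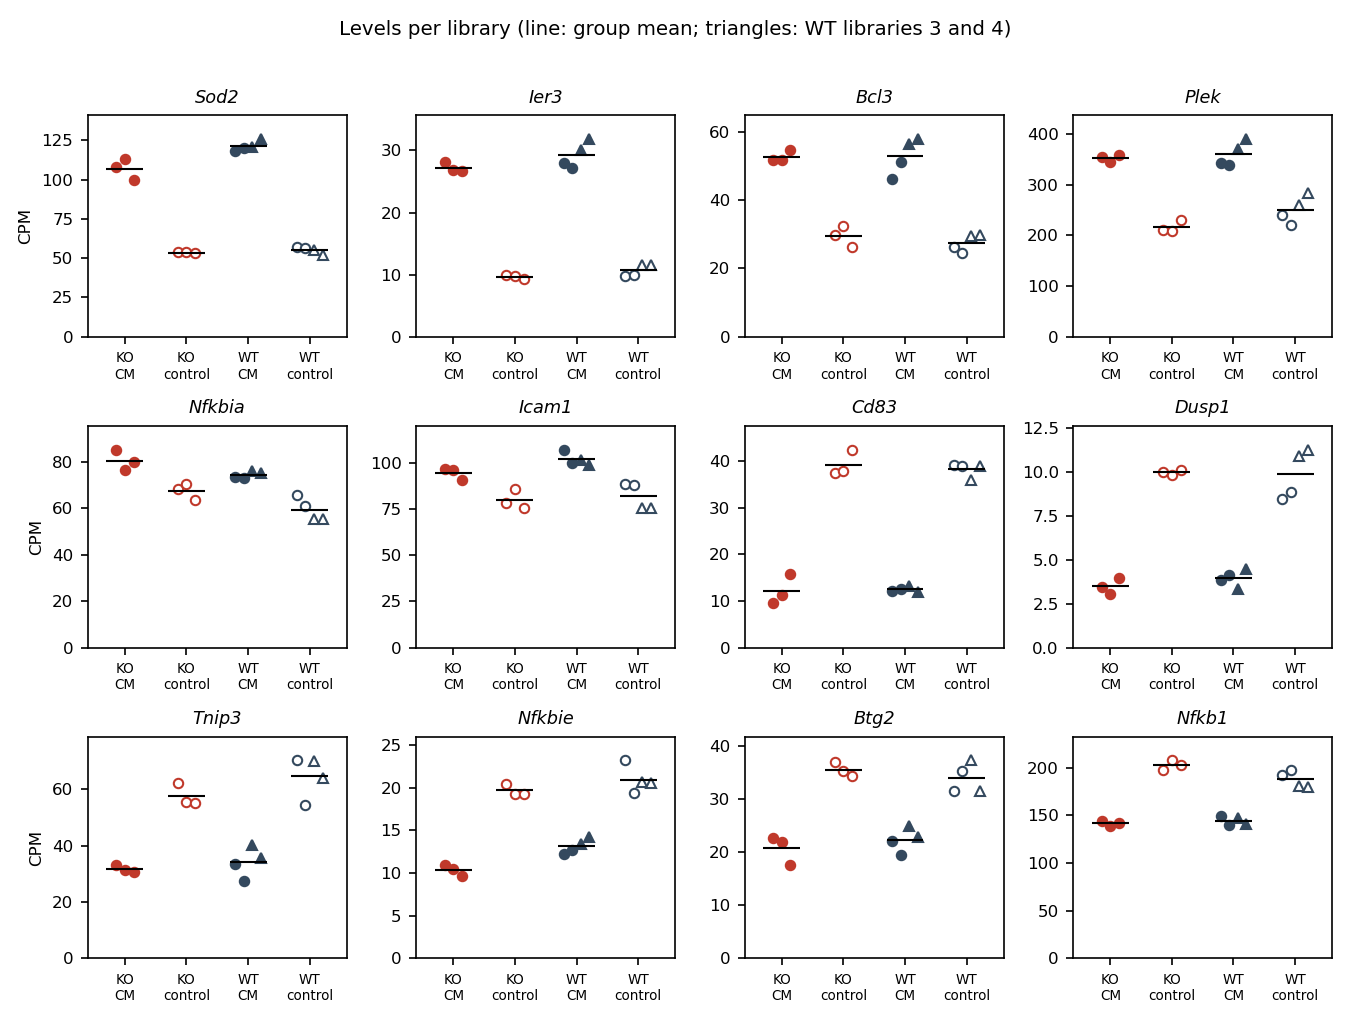
CPM in each library (points, triangles for WT libraries 3 and 4) of 12 genes called in both genotypes, by group, with the group mean as a line. Within each genotype the CM and control libraries do not overlap for these genes.

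Across the 34 genes, CM libraries did not overlap control libraries for 32 genes in KO (54.6% of all tested genes) and for 18 genes in WT (33.8%). The CM log2 fold changes of the 34 genes in KO and in WT had a Pearson r of 0.974 and a Spearman rho of 0.949 across genes, as a description, and 33 of the 34 had the same sign. They lay within 0.2 of each other for 30 genes. These measures of agreement were not computed over all tested genes, so they may not be particular to this list. The interaction was called for 0 of the 34 genes and for 0% of all tested genes in edgeR. At an unadjusted p below 0.05 there were 2 of the 34 genes and 1050 of the 13311 tested genes, so the 2 genes do not stand out from the rest. DESeq2 called 0 of the 34 and 84 of all genes (0.631%). The 2 genes were Nfkb2, with a difference between the KO and WT responses of -0.23 (95% interval -0.38 to -0.08), and Nfkbie, with -0.26 (95% interval -0.50 to -0.02). These intervals are not adjusted for the number of genes tested, and neither gene was called (edgeR adjusted p = 0.375 and 0.586). The interval was widest for Dusp2, at -1.79 to 0.39.

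Genes that pass signals to NF-kB were read from a second list of 46 genes, all tested. In WT, CM was higher for 12 and lower for 7 of the 46 genes (41.3% called, next to 37.3% of all tested genes), and in KO it was higher for 15 and lower for 7 (47.8%, next to 38.1%). Tlr4, the receptor for bacterial lipopolysaccharide, averaged 291 ± 8.54 CPM in KO CM and 131 ± 4.57 CPM in KO control (SD, n = 3 each), and 305 ± 15.5 CPM in WT CM and 150 ± 9.88 CPM in WT control (SD, n = 4 each). The Tlr4 log2 fold change was 1.15 ± 0.07 in KO (edgeR adjusted p = 1.63e-09) and 1.02 ± 0.06 in WT (adjusted p = 8.57e-10). The genes named here are the 3 with the smallest p in each direction in WT. The kinase Ikbke (1.03 ± 0.12 in KO and 0.96 ± 0.10 in WT) and the adaptor Card9 (0.52 ± 0.06 in KO and 0.61 ± 0.06 in WT) rose as well. Map3k14, the kinase that drives the noncanonical arm, fell by 0.56 ± 0.06 in KO and by 0.59 ± 0.05 in WT, and the deubiquitinases Otulin and Otud7b, both brakes, fell by 0.63 and 0.61 in KO and by 0.62 and 0.45 in WT. The edgeR adjusted p of these 5 genes was at most 4.68e-05 in KO and at most 0.000176 in WT.

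Of 16 secreted NF-kB targets, 13 were tested, and CM was higher for 3 and lower for 2 of them in KO (38.5%, next to 38.1% of all tested genes) and higher for 5 and lower for 2 in WT (53.8%, next to 37.3%). The chemokine gene Ccl2 averaged 40.9 ± 4.42 CPM in KO CM and 2.12 ± 0.304 CPM in KO control, and 32.8 ± 3.54 CPM in WT CM and 2.89 ± 0.479 CPM in WT control. Tnf averaged 2.10 ± 0.377 CPM in KO CM and 4.73 ± 0.957 CPM in KO control, and 2.60 ± 0.214 CPM in WT CM and 6.13 ± 0.892 CPM in WT control. Ccl2 thus rose while Tnf fell in both genotypes (edgeR adjusted p at most 0.000101). Among the genes called higher in WT, Il1a, Il6 and Cxcl3 were close to the detection limit. They averaged 0.20, 0.022 and 0.046 CPM in WT control and 1.93, 0.31 and 0.89 CPM in WT CM. Il6 and Cxcl3 were not called in KO (edgeR adjusted p = 0.117 and 0.15).

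Between KO and WT, fewer of the 34 genes were called than between the media when all WT libraries were used. In CM, 4 of 34 were lower in KO than in WT (Nlrp3, Marcksl1, Nfkb2 and Nfkbie) and 0 were higher, against 4.59% of all tested genes called in either direction and 1.49% called lower. In control medium, 1 of 34 was lower (Nlrp3) and 0 were higher, against 5.32% of all tested genes called and 2.5% called lower. The log2 fold changes of the 34 genes ran between -0.82 and 0.14 in CM and between -0.46 and 0.19 in control medium, with medians of -0.11 and -0.08. KO and WT libraries did not overlap for 8 genes in CM (20.9% of all tested genes) and for 5 genes in control medium (21.8%).

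**Figure D3:**
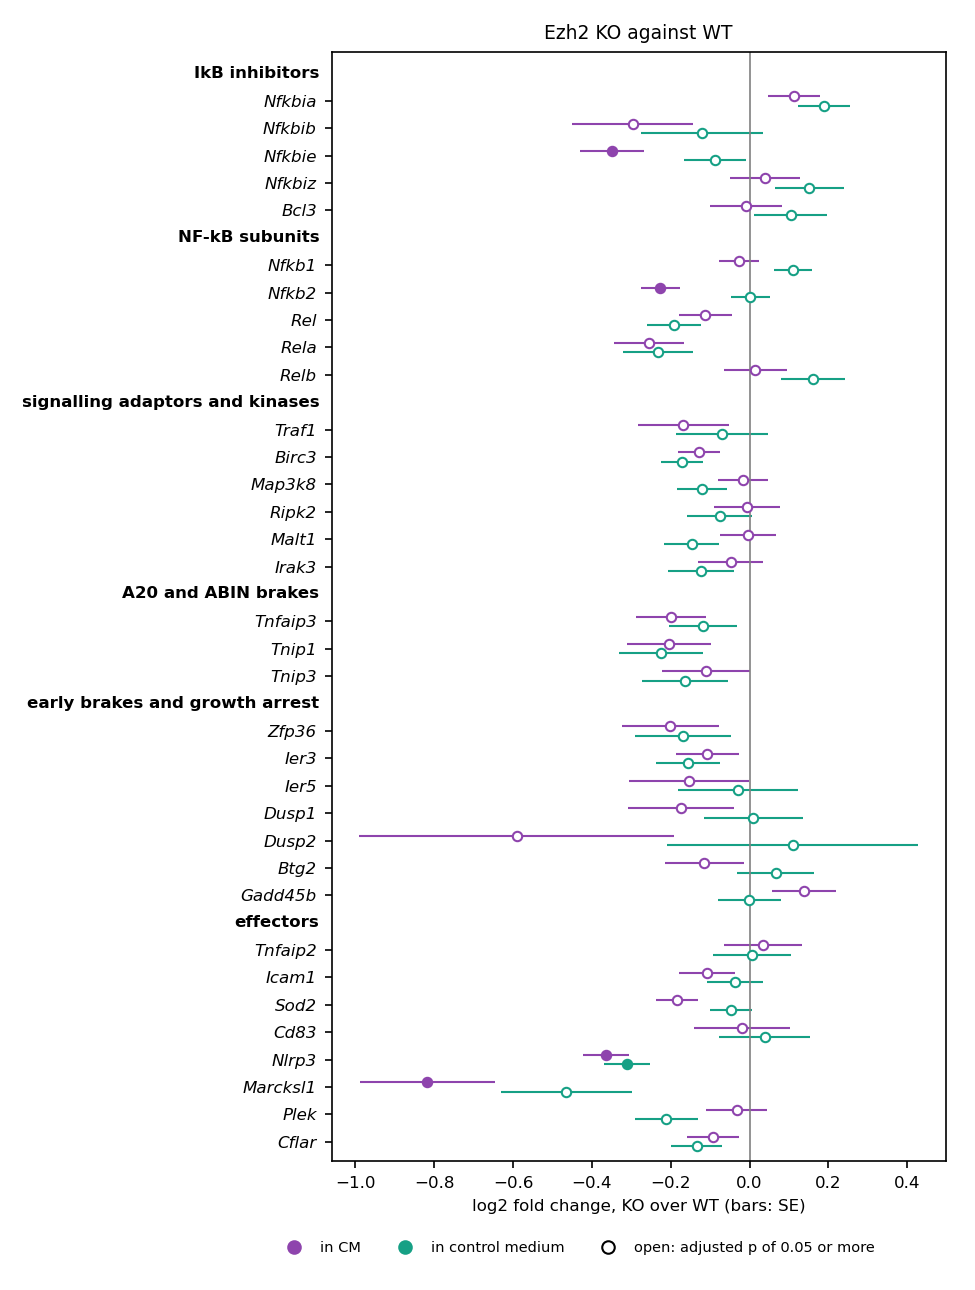
Log2 fold change of KO over WT (x axis) for each of the 34 genes, grouped by role, in CM and in control medium, with standard errors as bars and open symbols for adjusted p of 0.05 or more. Nlrp3 is filled in both media, Marcksl1, Nfkb2 and Nfkbie in CM alone, and the other values lie within 0.3 of 0 except Dusp2 in CM and Marcksl1 in control medium.

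Nlrp3 encodes the sensor of the inflammasome that activates caspase-1, and its transcription is a target of NF-kB. Nlrp3 had 47.1, 46.5 and 46.8 CPM in KO CM, against 56.4, 59.8, 61.4 and 63.2 CPM in WT CM. In control medium it had 52.1, 51.7 and 50.9 CPM in KO, against 62.5, 59.2, 65.2 and 68.9 CPM in WT. Every KO library was below every WT library of its medium, by 0.36 ± 0.06 on the log2 scale in CM (edgeR adjusted p = 0.00306) and 0.31 ± 0.06 in control medium (adjusted p = 0.00746). WT libraries 3 and 4 were higher than WT libraries 1 and 2 in both media. Against WT libraries 1 and 2 alone the log2 fold change was -0.30 in CM (adjusted p = 0.00906) and -0.23 in control medium (adjusted p = 0.0342), and against WT libraries 3 and 4 alone it was -0.41 (adjusted p = 4.13e-05) and -0.38 (adjusted p = 5.51e-05). CM itself was not called for Nlrp3 in the main fit, at -0.14 in KO (edgeR adjusted p = 0.0937) and -0.09 in WT (adjusted p = 0.228). In KO it was called lower with the replicate block (adjusted p = 0.0297) and with library totals alone (adjusted p = 0.00454), as it was in WT with library totals alone (adjusted p = 0.0175).

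Marcksl1 encodes a membrane-bound protein that binds actin and calmodulin. Marcksl1 had 15.7, 14.2 and 13.7 CPM in KO CM, against 19.9, 20.7, 28.1 and 33.1 CPM in WT CM, and 28.7, 29.2 and 29.0 CPM in KO control, against 35.9, 31.7, 49.4 and 42.8 CPM in WT control. The KO libraries were lowest in each medium, the WT libraries 3 and 4 were highest, and WT libraries 1 and 2 lay between them. The KO over WT log2 fold change was -0.82 ± 0.17 in CM (edgeR adjusted p = 0.0148) and -0.46 ± 0.17 in control medium (adjusted p = 0.105). Against WT libraries 1 and 2 alone it was -0.48 in CM (adjusted p = 0.00611) and -0.22 in control medium (adjusted p = 0.156), and against WT libraries 3 and 4 alone it was -1.08 (adjusted p = 1.38e-06) and -0.67 (adjusted p = 3.21e-05). The CM call was lost without KO CM library 2 (adjusted p = 0.0548) or KO CM library 3 (adjusted p = 0.084), and in control medium a call appeared without WT control library 2 (-0.56, adjusted p = 0.0379). CM lowered Marcksl1 by 1.00 ± 0.18 in KO (edgeR adjusted p = 0.000401) and by 0.65 ± 0.15 in WT (adjusted p = 0.00332), where the CM and control libraries of the whole group overlapped but those within each pair did not. Marcksl1 has an annotated pseudogene, and whether reads were shared with it was not tested.

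Nfkb2 and Nfkbie were called lower in KO in CM and were not called in control medium, and the difference between the media was not called for either. Nfkb2, the precursor of the noncanonical subunit, had 99.8, 91.4 and 94.5 CPM in KO CM, against 108.1, 107.6, 115.4 and 114.2 CPM in WT CM, and 113.9, 114.5 and 111.7 CPM in KO control, against 114.5, 108.7, 116.4 and 113.2 CPM in WT control. The KO CM libraries stood below all other libraries, and the control libraries of both genotypes overlapped. The log2 fold change was -0.23 ± 0.05 in CM (edgeR adjusted p = 0.0174) and 0.00 in control medium (adjusted p = 0.985). For Nfkbie, with the values per library given above, it was -0.35 ± 0.08 in CM (edgeR adjusted p = 0.025), without overlap, and -0.09 in control medium (adjusted p = 0.499). Both calls ended without KO CM library 2 or 3 and without WT CM library 3 or 4 (adjusted p between 0.0597 and 0.131). Against WT libraries 1 and 2 alone the CM values were -0.17 for Nfkb2 (adjusted p = 0.0971) and -0.26 for Nfkbie (adjusted p = 0.185), and against WT libraries 3 and 4 alone they were -0.27 (adjusted p = 0.000658) and -0.42 (adjusted p = 0.0012). Nfkbie was also not called from its most-counted exon (adjusted p = 0.0724).

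**Figure D4:**
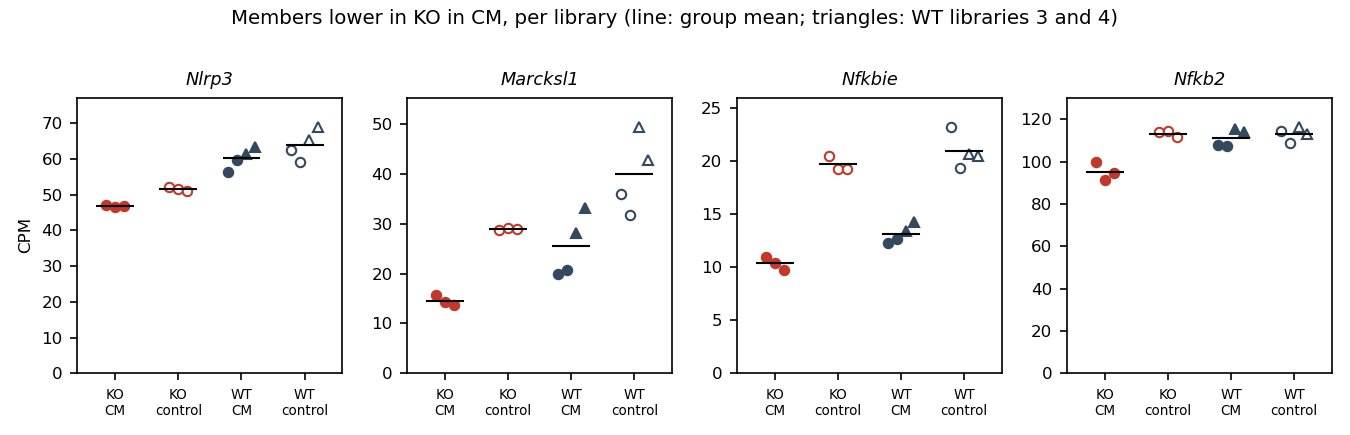
CPM in each library (points) of the genes called lower in KO, by group, with the group mean as a line and triangles for WT libraries 3 and 4. The KO libraries lie below the WT libraries in CM for Nlrp3, Marcksl1, Nfkb2 and Nfkbie. WT libraries 3 and 4 are the highest CM libraries for all of these genes, and the highest control libraries for Nlrp3 and Marcksl1.

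The number of genes called in KO against WT depended on which WT libraries were used. In CM, 2 of the 34 genes were called against WT libraries 1 and 2 alone (3.58% of all tested genes) and 16 against WT libraries 3 and 4 alone (35.5% of all tested genes). In control medium 1 was called against WT libraries 1 and 2 alone (3.85% of all tested genes) and 17 against WT libraries 3 and 4 alone (38.9%), so the number called moved with that of all genes. Rela, for example, had 77.8, 83.1 and 84.2 CPM in KO CM, against 87.4 and 89.0 CPM in WT CM libraries 1 and 2 and 110.3 and 103.4 CPM in WT CM libraries 3 and 4. Sod2, at -0.18 ± 0.05 in CM with no overlap, was just above the threshold in edgeR (adjusted p = 0.0644) and below it in DESeq2 (adjusted p = 0.0124). It stood at -0.15 against WT libraries 1 and 2 alone (edgeR adjusted p = 0.18) and at -0.21 against WT libraries 3 and 4 alone (adjusted p = 0.00861). Of the 46 upstream genes, 2 were called for KO in CM (4.35%, next to 4.59% of all tested genes) and 1 in control medium (2.17%, next to 5.32%), so neither share exceeded that of all genes. Ltbr, the lymphotoxin beta receptor, was higher in KO in CM (0.26 ± 0.06, edgeR adjusted p = 0.0181). Ticam2, an adaptor of Tlr4, was lower in KO in CM (-0.22 ± 0.06, adjusted p = 0.0436) and in control medium (-0.22 ± 0.06, adjusted p = 0.0431). Against WT libraries 1 and 2 alone, Ltbr stood at 0.26 in CM (adjusted p = 0.0327), while Ticam2 was not called at -0.19 in CM (adjusted p = 0.128) or -0.15 in control medium (adjusted p = 0.233). Against WT libraries 3 and 4 alone, Ltbr stood at 0.27 in CM (adjusted p = 0.00218) and Ticam2 at -0.25 in CM (adjusted p = 0.00359) and -0.29 in control medium (adjusted p = 0.0012). Of the 13 secreted targets, 0 were called for KO in CM and 1 in control medium (7.69%, next to 5.32% of all tested genes). The chemokine gene Ccl5 stood at -0.63 ± 0.18 in CM for KO over WT (edgeR adjusted p = 0.0644) and was lower in control medium, at -0.77 ± 0.18 (adjusted p = 0.0242). In control medium Ccl5 stood at -0.54 against WT libraries 1 and 2 alone (adjusted p = 0.166) and at -0.94 against WT libraries 3 and 4 alone (adjusted p = 0.000695). Lyz2, where the Cre sits, had 9313 to 9569 CPM in KO CM and 10040 to 10320 CPM in KO control, against 19050 to 21710 CPM in WT CM and 19190 to 24180 CPM in WT control.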

How the data were processed

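Per the submitters' processing notes, reads were aligned to mm10 with HISAT2. The authors deposited raw counts per exon of each transcript model. The counting tool, annotation and strand setting are not given in the sources used here. Of 427386 exon entries, 196941 repeated another entry of the same gene and were dropped, and the other 230445 were summed per gene. Fragments that span exons, or overlapping exon variants, can be counted more than once, so gene counts are not fragment numbers. Exons of Nfkb2, Icam1, Nfkbib, Plek, Tnfaip2, Zfp36, Bcl3 and Irak3 overlap genes on the opposite strand in GENCODE, so reads of both may mix if strand was not used.

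Genes passing filterByExpr (count of 10, total of 15) were tested in edgeR 4.0.16 (R 4.3.3, TMM, quasi-likelihood F test). A single model of 4 group means gave 5 comparisons, each with Benjamini-Hochberg adjustment over 13311 genes and calls below 0.05. Standard errors were derived from the F statistic. Levels are TMM-scaled CPM computed from the deposited counts. The fit was checked on simulated counts, and DESeq2 1.42.0 was an alternative. Same-numbered WT CM and WT control libraries deviated together (r between 0.33 and 0.47), so blocked values stand beside WT calls that they change, although other pairs within WT libraries 1 and 2 or 3 and 4 reached 0.46. Promoter sequences are from RefSeq. Gene members and lists were chosen with earlier results of these data known. All members were named, with the 3 upstream genes of smallest p in each direction for CM in WT.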

Additional observations from a re-analysis of the deposited data

Results flagged for a closer look

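Of 68 groups of 4 libraries, 3 had a library far from the others by Dixon's gap test, about 1 in 20 being usual by chance. WT control library 3 had 35.84 CPM of Cd83, the others 38.82 to 39.2. WT control library 2 had 32.17 CPM of Map3k8, the others 28.72 to 29.25. WT control library 1 had 11.99 CPM of Traf1, the others 8.747 to 8.883.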

How the results depend on the processing

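The number of the 34 genes called was compared across normalisations, filters, exon summaries, tools, thresholds, WT library pairs and left-out libraries. No called gene changed sign under any of these. Of the 24 CM calls in WT, 16 were kept under every setting run that changed no threshold, as were 14 of 21 in KO and the Nlrp3 calls of KO against WT in both media. With a change of 1.5-fold also required, 10 genes were called in WT and 11 in KO for CM, and 1 in CM and 0 in control medium for KO against WT. The share of all tested genes was not computed at 1.5-fold or at an adjusted p below 0.01, so these counts have no background. At 2-fold, 5 of the 34 genes were called in WT (7.54% of all tested genes) and 4 in KO (8.92%) for CM. For KO in CM, 1 was called at an adjusted p below 0.01, 2 in a fit of the compared groups alone (3.31% of all tested genes), 2 against WT libraries 1 and 2 (3.58%) and 16 against WT libraries 3 and 4 (35.5%). For KO in control medium, 2 were called with library totals alone (5.91% of all tested genes), 3 with DESeq2 (11.3%) and 17 against WT libraries 3 and 4 (38.9%). The cause of these shifts was not tested.

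Leaving out each library in turn gave 19 to 24 CM calls in WT (33.9% to 36.8% of all tested genes) and 18 to 23 in KO (32% to 39.2%). For KO against WT it gave 1 to 4 calls in CM (1.61% to 5.42%) and 1 to 4 in control medium (1.67% to 13.3%). The interaction had 0 calls (at most 0.015%). KO in CM had 1 call without KO CM library 2 or 3 (2.69% and 1.61% of all tested genes). It had 2 without WT CM library 3 or 4 (2.2% and 1.95%). KO in control medium had 4 without WT control library 2 (13.3% of all tested genes) and 2 without WT control library 1 (4.95%). With the replicate number as a block, 30 genes were called in WT (49.4% of all tested genes) and 28 in KO (50.1%) for CM, 4 in CM (4.36%) and 1 in control medium (6.21%) for KO against WT, and 0 for the interaction (1.54%). Same-numbered WT libraries of the 2 media had correlations of 0.33 to 0.47. Other pairs within WT libraries 1 and 2 or 3 and 4 had 0.31 to 0.46, so the numbers show no pairing beyond these library pairs. Same-numbered KO libraries had correlations of -0.04 to 0.05, and same-numbered KO and WT libraries of a medium had -0.1 to 0.12. Depth was 40.25 M counts or more, and of the 34 genes Dusp2 alone was measured near the limit. The interaction needs all 4 groups, so it has no value with the compared groups alone, and the WT library pairs do not enter the CM comparison in KO.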
